A study of Rattus norvegicus with 15 samples.

Results

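In rat whole blood, 44 annotated features had higher normalised read counts at both 6 h and 12 h after deep venous thrombosis was modelled than in sham, at 1 h and at 72 h. They come from 4707 annotated features that reached a value of 50 in 3 or more of the 15 libraries, out of 17599 features in the table. Members were chosen by log2(value + 1), where a value is the normalised read count, through the median of the 3 libraries of each group. The selection kept features whose 6 h and 12 h medians both exceeded each of the sham, 1 h and 72 h medians by at least 1, which is a doubling on that scale. In all, 47 features met this, and the selection leaves 3 of them out. The smallest of the 6 differences between medians is called the margin here, and members are referred to by their rank in it, from rank 1 for the widest to rank 44. Since these medians chose the members, the rise at 6 h and 12 h is described and not tested.

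The animals were male Sprague-Dawley rats, an outbred stock, aged 6 to 8 weeks and weighing between 250 and 300 g. There were 3 blood samples per group: sham, placed at 0 h by the labels, and 1 h, 6 h, 12 h and 72 h after modelling, with no other genotype or agent given. The sources used here give neither how the clot was induced nor whether replicate numbers stand for separate animals, so p-values reflect the spread among these samples alone, and that spread may be technical. Titles of the sham, 1 h and 72 h libraries (9) carry the code A&B and those of the 6 h and 12 h libraries (6) the code C, so for every member the rise at 6 h and 12 h and the difference between codes cannot be told apart.

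Whole blood RNA comes from red cells that have just left the marrow and still hold globin transcripts, from granulocytes, monocytes and lymphocytes, and from platelets. In venous thrombosis, platelets, neutrophils and monocytes are drawn into the clot, and white cell numbers in the circulation shift over hours. In such bulk samples fewer cells of a type and less RNA per cell cannot be told apart. The table does not pair its feature IDs with gene names and the reference table matched 0 of them, so members are described by their values, no sequence could be attached to them, and the tissue was not checked against marker genes.

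Recovered reads came to 29199437 to 43332985 per library, of which 4672693 to 7646156 lay outside the 5 most abundant features. The deposited values are reads divided by a factor for each library, and at 12 h this factor had both its lowest value, 0.584 in replicate 2, and its highest, 2.67 in replicate 3. The group medians were 1.28 for sham, 1.03 for the 1 h libraries, 0.886 for 6 h, 0.782 for 12 h and 0.760 for 72 h. Replicate 3 had the highest factor of its group in sham (1.55), at 1 h (1.06) and at 6 h (1.40) as well as at 12 h. At 72 h replicate 2 did (1.57). Replicate 3 of 6 h and 12 h and replicate 2 of 72 h stand apart in many of the results that follow. Those results are therefore also given on other scales or with single libraries left out.

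Margins of the members had a median of 1.16 and ran from 1.00 to 2.39. Only 3 members had a margin of at least 2 and 26 lay under 1.2, so most sit close to the limit. The 3 members just inside it had margins of 1.002, 1.016 and 1.022, and the 3 nearest features outside had 0.986, 0.979 and 0.963. Set by single libraries, membership was loose. With 1 library left out, the median of its group becomes the mean of the other libraries on the log2 scale. The counts that follow also reflect that change. The count was 29 when 6 h replicate 2 was left out. Leaving out replicates 1, 2 and 3 of 12 h in turn gave 25, 17 and 70. Leaving out 72 h replicate 1 gave 94, of which 38 were among the 44, and leaving out 72 h replicate 3 gave 117, of which 42 were. The members leaned to lower abundance than the 4707 features they were drawn from. The median of the mean value over all libraries was 71.3 for the members against 92.3 for those features. Above a mean of 1000 lay 5 members, and 25 had a mean under 100.

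The most abundant member, ENSRNOG00000012557 (rank 25), had values of 32401, 28958 and 23783 in the sham libraries and of 37391, 28537 and 34199 at 1 h. At 6 h its values were 124858, 90364 and 33106, and at 12 h they were 87070, 118422 and 21752. The 72 h libraries had 39424, 17460 and 53398. Replicates 1 and 2 at 6 h and 12 h lay above all 9 libraries of the other groups, while replicate 3 of each time lay within their range. The margin was 1.14, or 2.21-fold, and fell to 0.14 without 12 h replicate 2, its lowest with any 1 library left out. The 12 h level was then the mean of replicates 1 and 3 on the log2 scale. Counted in reads before division by the factor, the same feature had 91046, 80048 and 46293 reads at 6 h and 68079, 69123 and 58167 at 12 h. All 6 of these counts were above those of the other 9 libraries, which lay between 27420 and 38783, both found at 72 h. Reads are not adjusted for depth. Outside the 5 most abundant features, replicate 3 of 6 h and of 12 h had more reads than any of those 9 libraries. By total reads 12 h replicate 3 was the largest library of its group, but 6 h replicate 3 was the smallest of its group. Scaled to equal totals outside the 5 most abundant features, ENSRNOG00000012557 had 40404 in 6 h replicate 3 and 43420 in 12 h replicate 3, both below the 46851 of 72 h replicate 3, so the groups overlapped there too.

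ENSRNOG00000022669, the member with the widest margin (2.39), was a low feature whose values in the low groups were uneven. It was at 0, 38.3 and 1.94 in sham, at 7.94, 0 and 11.3 at 1 h and at 0, 4.46 and 0 at 72 h. At 6 h it had 59.0, 21.4 and 71.5, and at 12 h 46.0, 72.0 and 23.6. Sham replicate 2 lay above 6 h replicate 2 and 12 h replicate 3, so the groups overlapped. A value of 0 allows up to 3 reads, which is a value of 1.12 to 5.14 depending on the library and covers counting error only.

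**Figure D1:**
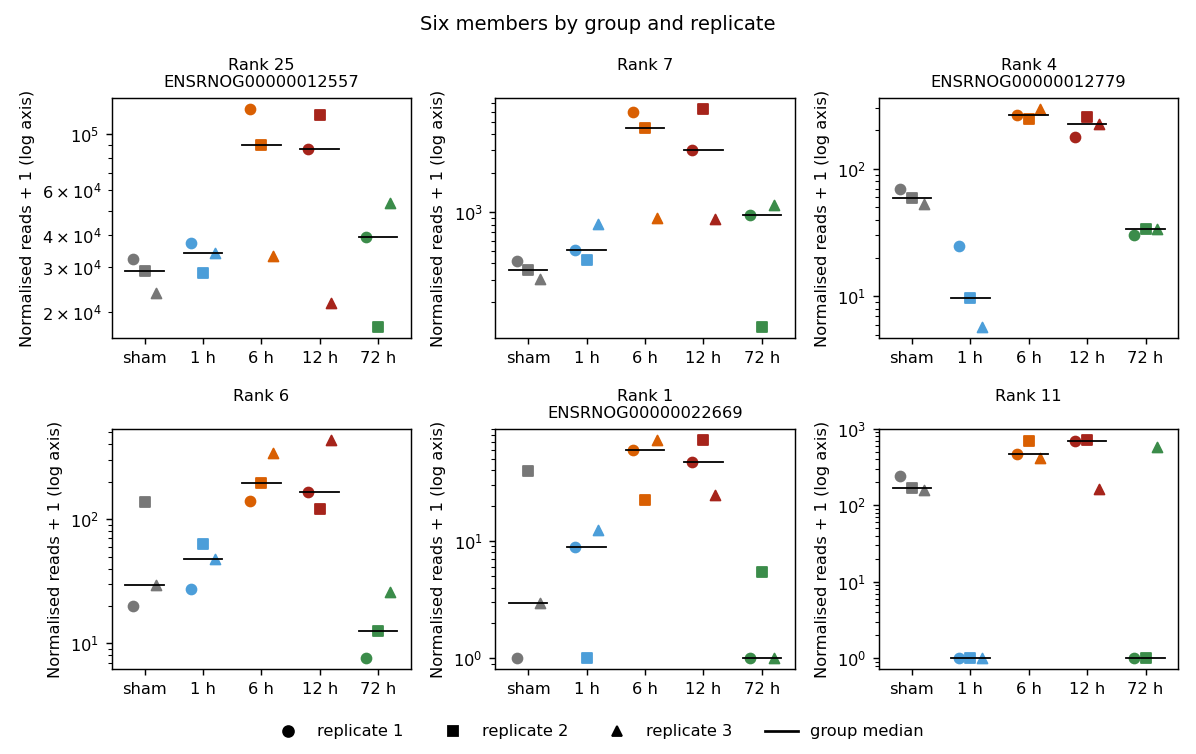
Normalised read counts plus 1 (log axis) of 6 members in each group, with 1 symbol per library and a line at the group median. At ranks 25 and 7 replicate 3 lies far below replicates 1 and 2 at both 6 h and 12 h; at rank 4 all 6 libraries of these times lie between 175 and 294, above every other library.

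For 4 members (ranks 4, 10, 15 and 40) all 6 libraries at 6 h and 12 h lay above all 9 others, as did 0.432% of the 11117 features tested. The selection used the same contrast, so nothing is read from that difference. ENSRNOG00000012779 (rank 4) had 262, 244 and 294 at 6 h and 175, 252 and 224 at 12 h, a spread narrower than that of the most abundant member. Its values were 67.8, 57.8 and 51.7 in sham, 23.8, 8.73 and 4.70 at 1 h and 29.0, 32.5 and 33.0 at 72 h. Sham was thus the highest of its low groups and 1 h the lowest, without overlap between them. The rank 10 member ranged from 63.2 to 111 at 6 h and 12 h and from 12.9 to 37.1 elsewhere. Rank 15 had 35.0 to 106 against 3.97 to 28.9, and rank 40 had 99.5 to 135 against 34.2 to 77.1. In 12 more members 5 of the 6 libraries lay above all others, in 20 members 4 did, and in the remaining 8 at most 3. Replicates 1 and 2 of 6 h and 12 h all lay above the 9 others in 29 members, against 5.22% of the features tested. The selection used this contrast too, so nothing is read from these counts. The number that separated fully was 11 without sham replicate 2, as for 0.783% of the features tested, and 11 without 12 h replicate 3, as for 1.19%.

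The library most often low was replicate 3 of 12 h: it was the lowest of its group in 34 of 44 members, against 34.6% of the features tested. Replicate 3 of 6 h was the lowest of its group in 30 members, against 31.8% of features. In 29 members both were, against 21.2% of the features tested. In 29 members 12 h replicate 3 was also at or under a level of 0.5 times the lower of the other 12 h libraries, against 21.6% of the 4707 eligible features. In the low groups, sham replicate 3 was the lowest in 25 members, against 36.9% of the features tested. There 1 h replicate 3 was the lowest in 17 members (26.8% of features) and 72 h replicate 2 in 27 (33.6%). All of these libraries had the highest factors of their groups. The same libraries chose the members, so these counts are a description.

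**Figure D2:**
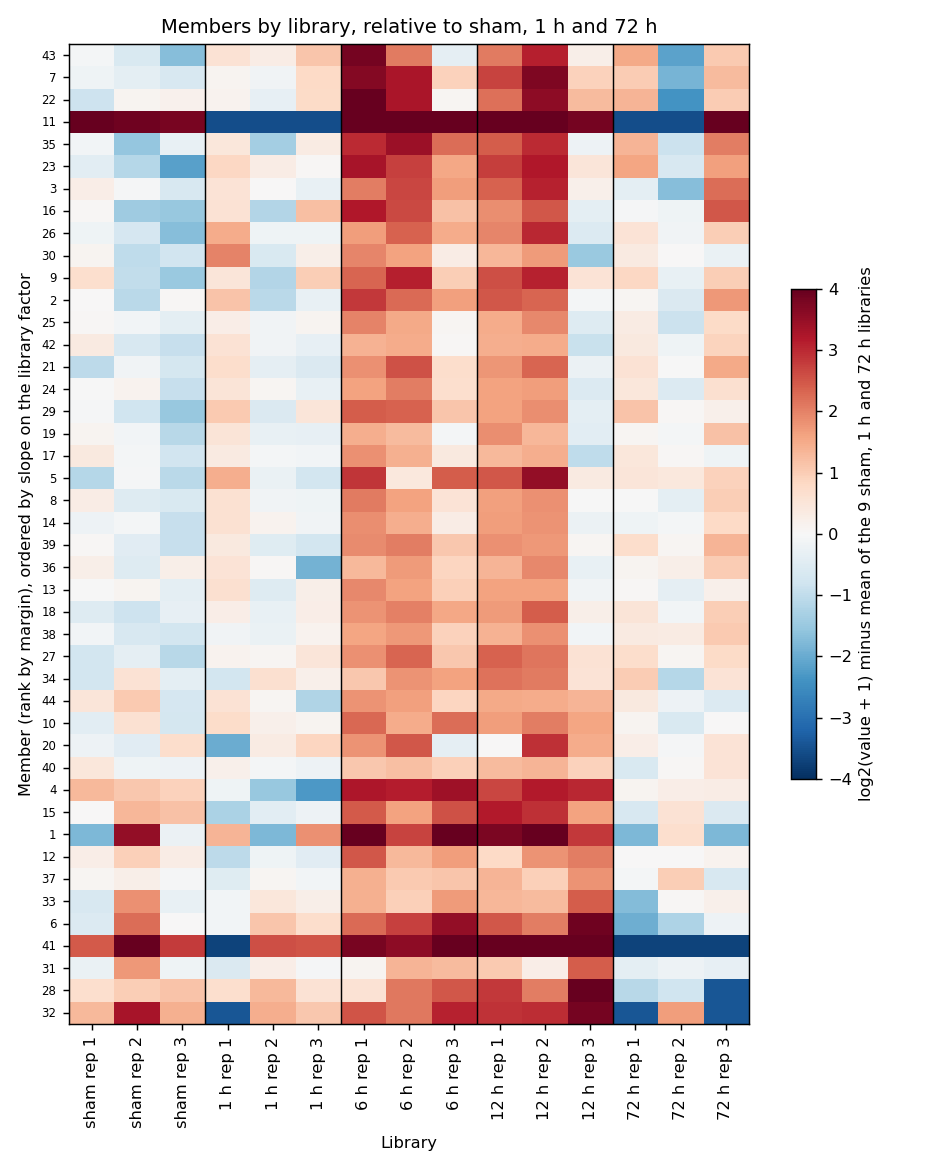
Each row is a member (numbered by rank of margin) and each column a library, coloured by log2(value + 1) minus the mean of the 9 sham, 1 h and 72 h libraries; the colour scale ends at 4 in either direction and rows are ordered by slope on the library factor. In the upper rows replicate 3 at 6 h and 12 h is pale; in the lowest rows 12 h replicate 3 is the strongest.

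To describe this within groups, a slope of log2(value + 1) on the log2 library factor was fitted for every feature with the 5 groups in the same model (limma). Medians of the same libraries chose the members, so the slopes of members are a description. At an adjusted p under 0.05 the slope was below 0 for 26 members and above 0 for 2, and it was not called for 16. Over the 11117 features tested 18.7% were below and 15.1% above. Among the 6353 features reaching 50 in 3 libraries, fitted alone, the shares were 31.4% and 23.1%, with 27 and 2 members. The median slope was -0.95 for the members and 0.21 for all features. Because values are reads divided by the factor, an abundant feature with the same number of reads in every library has a slope of -1 by construction. With reads scaled instead to equal totals outside the 5 most abundant features, the medians were -0.15 for the members and 0.97 for all features, and 16 members were called, 7 below 0 and 9 above. On that scale 66.3% of all features were called, 3.03% below 0 and 63.3% above. Without 12 h replicate 3 the slope was called for 15 members, 14 of them below 0, while 11.7% of all features were called, 9.43% below 0 and 2.32% above.

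**Figure D3:**
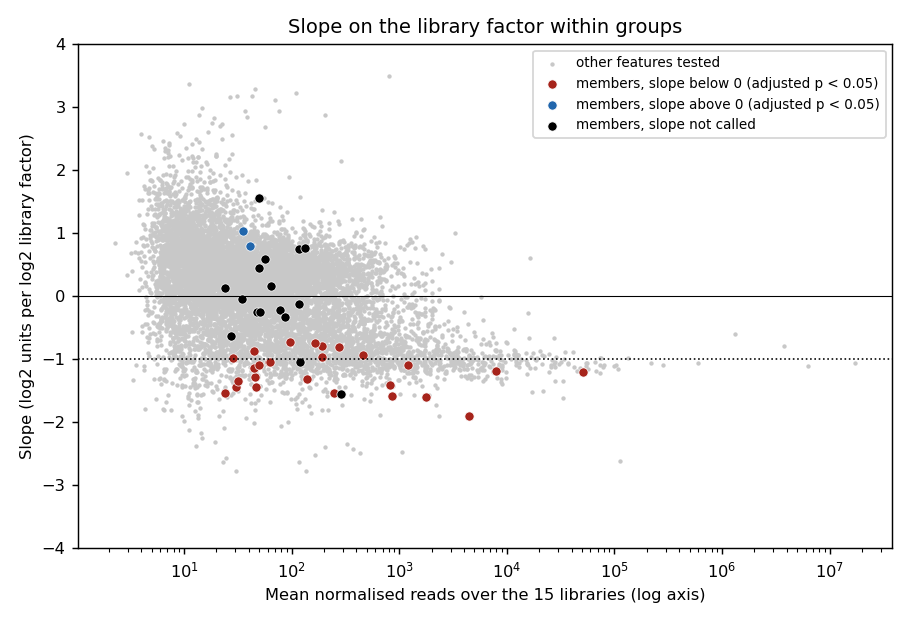
Slope on the log2 library factor within groups (vertical axis, deposited scale) against mean normalised read count (log axis) for the features tested (grey, 4 lie outside the axis) and the 44 members. The dotted line marks -1, the slope of an abundant feature with equal reads in all libraries; most members lie near or below it.

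The 26 members with a slope below 0 included 5 of mean value above 1000. In all 26, replicate 3 was the lowest library of both 6 h and 12 h. Replicate 3 had the highest factor at both times, so a slope below 0 favours this order and nothing is read from it. ENSRNOG00000012557 had a slope of -1.21 (SE 0.12), and of -0.42 on equal totals. The rank 43 member had the steepest, at -1.91, and a wide spread: 21164, 6231 and 1163 at 6 h, 6199, 12724 and 1757 at 12 h, and 4196, 332 and 3065 at 72 h, against 456 to 1414 in sham and 1835 to 3181 at 1 h. Rank 7 behaved alike, with 5976, 4458 and 892 at 6 h and 3015, 6291 and 890 at 12 h. Elsewhere it lay between 127 (72 h replicate 2) and 1125 (72 h replicate 3). Rank 22 had 4547, 1989 and 220 at 6 h and 945, 2477 and 495 at 12 h, with 38.8 in 72 h replicate 2 and 115 to 530 in the rest. In these 3 members 6 h replicate 1 or 12 h replicate 2 was the highest library and 72 h replicate 2 the lowest, and their margins were 1.02, 1.67 and 1.17.

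Of the 16 members with no called slope and the 2 with a slope above 0, 7 had their highest value of all in 12 h replicate 3. This is 15.9% of the 44 members, near the 14.3% of features tested. Rank 6 was among them: its values were 139, 195 and 337 at 6 h and 165, 120 and 435 at 12 h. In sham it had 18.9, 136 and 28.4, so sham replicate 2 reached the level of the lower 6 h and 12 h libraries. The 72 h libraries, at 6.58, 11.5 and 24.8, were lower than all at 1 h, which had 26.5, 62.1 and 47.0. Rank 28 (slope 1.03) had 174 in 12 h replicate 3 but 15.1 in 6 h replicate 1, below the 22.6 of sham replicate 3. In 9 members sham replicate 2 was at least 2-fold above both other sham libraries, which held for 1.10% of the eligible features. They included ranks 31, 32, 33 and 41, where it had 83.6, 104, 105 and 284.

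Ranks 11 and 41 were at 0 in all libraries of a low group. At rank 11 the sham libraries had 241, 170 and 160 and the 6 h and 12 h libraries 164 to 720, while 1 h had 0 in all 3 and 72 h had 0, 0 and 576. Taking the 1 h libraries at the limit of 3 reads each, the sham median was at least 58.5-fold higher and the 6 h median at least 159-fold higher. The single 72 h library with reads lay within the range of 6 h. At rank 41 all 72 h libraries and 1 h replicate 1 were at 0, with 75.6 and 72.3 in the other 1 h libraries. Its values were 69.8, 284 and 87.9 in sham, 180, 155 and 247 at 6 h and 242, 216 and 357 at 12 h. In both members single libraries of a group thus held either no reads or a level near that of the other groups.

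Whether the members differed between 12 h and 6 h, groups of the same code whose order the selection leaves free, was tested in limma with all 11117 features. None of the 44 passed (0 called, percentage over all features 0), and at an unadjusted p under 0.05 there were 0 members against 3.8% of features. With the 6 h and 12 h libraries fitted alone and paired by replicate number, 0 members were called in limma and 4 were at an unadjusted p under 0.05, against 3.71% of features. edgeR on recovered reads also called 0 members, with 1 at an unadjusted p under 0.05, against 3.31% of features. DESeq2 on recovered reads tested 43 of the 44 and called 0, against 0.135% of features. It had 1 member at an unadjusted p under 0.05, against 2.81% of features. The log2 differences ran from -1.14 to 1.23, with a median SE of 0.62 and a highest SE of 1.90. Differences of a doubling in single members, and larger ones too, could thus have been missed. By fitted means the median difference was -0.24 and 13 members were higher at 12 h, against 45% of features. By group medians 23 were, against 49.2%. Without 12 h replicate 3 the median was 0.29 and 34 were higher, against 47.7% of features. Without 6 h replicate 3 the median was -0.52 and 12 were higher, also against 47.7%. The order of the 2 times in these members thus turned with a single library.

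Between 1 h and sham, 1 member was called, against 0.135% of the features tested, all of them lower at 1 h. This was ENSRNOG00000012779, a feature named after its values were seen, with 59.1 ± 8.11 in sham and 12.4 ± 10.1 at 1 h (SD, n = 3), and 1 h was lower by a log2 difference of -2.43, with an SE of 0.40 and a limma adjusted p of 0.0281. The groups did not overlap. DESeq2 called it too (adjusted p = 1.99e-05), as it did 0.77% of features. The call was lost in edgeR (log2 difference -2.34, adjusted p = 0.0598) and on equal totals (-2.87, limma adjusted p = 0.205). It was also lost without sham replicates 1, 2 or 3 (limma adjusted p = 0.119, 0.280 and 0.0847), 1 h replicates 2 or 3 (0.107 and 0.138) or 6 h replicates 1 or 2 (0.0506 and 0.0518), and it was as low as 0.000331 without 1 h replicate 1. Without 72 h replicate 3 rank 11 was called as well. At an unadjusted p under 0.05 there were 7 members, 2 higher and 5 lower at 1 h, against 7.29% of features.

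The comparison of 72 h with sham uses the same 3 sham libraries. Here 0 members were called in limma (percentage over all features 0), and 11 were at an unadjusted p under 0.05, 5 higher and 6 lower, against 7.25% of features. edgeR called 0, with 12 at an unadjusted p under 0.05, against 6.64% of features. DESeq2 tested 43 of the 44 members and called 1, against 0.254% of features. This was the rank 41 member with 0 in every 72 h library, which limma also called without 1 h replicate 1. Without 72 h replicate 3, its only 72 h library with reads, rank 11 was called. The largest positive difference was at rank 23, with 55.8, 33.6 and 16.2 in sham and 229, 47.8 and 237 at 72 h (log2 difference 2.10, SE 0.71, limma adjusted p = 0.576). This member was called with the library factor added to the fit (log2 difference 1.49, limma adjusted p = 0.0382).

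The low groups were not level with each other for members of different slope. The 26 members with a slope below 0 had a median log2 difference from sham of 0.45 at 1 h and 0.76 at 72 h. At these times 25 and 26 of them were above sham, against 51.5% and 46.3% of all features. All features include those of any slope, and no share is given for features with a slope below 0 alone. These counts are therefore not read as particular to the members. The members with no called slope had medians of -0.27 and -0.63, with 4 and 5 of 16 above sham. Over all 44 the medians were 0.24 at 1 h and 0.39 at 72 h, against 0.02 and -0.05 for all features. With the library factor as a covariate they were -0.07 and 0.06. The factor fell from sham to 72 h in the group medians given above, and its part in these differences was not tested beyond that fit.

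On equal totals the median feature shifted from sham (log2) by -0.40 in the 1 h group, -0.73 in the 6 h group, -0.54 in the 12 h group and -0.41 in the 72 h group, so margins are read relative to a lower background there. All but 3 members kept a margin above 0, with a median of 0.64 and a range from -0.25 to 2.58, while the median over the 4707 features went from -0.44 to -1.08. A margin of at least 1 was reached by 10 members, 7 of them with a slope below 0. ENSRNOG00000022669 had 2.58, ENSRNOG00000012779 had 0.96 and ENSRNOG00000012557 had 0.69. The 3 members at or below 0 were ranks 12, 32 and 41. On this scale 8 members had all 6 libraries of 6 h and 12 h above all others, compared with 4 on the deposited scale, and 0.306% of the features tested did. Members took 1.02 to 2.32% of the reads outside the 5 most abundant features at 6 h and 12 h and 0.662 to 1.12% in the other libraries, so the ranges overlapped. Without ENSRNOG00000012557 these shares were 0.317 to 0.724% and 0.175 to 0.304%, with no overlap. The members were chosen by the same contrast, so a higher share at 6 h and 12 h is built in and nothing is read from it.

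**Figure D4:**
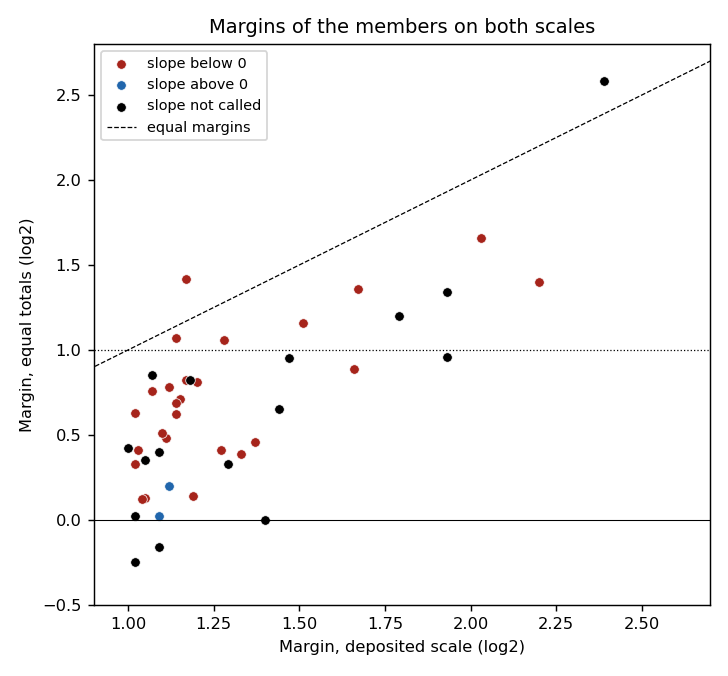
Margin of each member (log2) on the deposited scale (horizontal) and with reads scaled to equal totals outside the 5 most abundant features (vertical), coloured by the call of its slope on the library factor. The dashed line marks equal margins and the dotted line the limit of 1; 10 members lie at or above that limit on the vertical axis and 3 lie at or below 0.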

How the data were processed

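RNA from blood kept in PAXgene tubes (1 ug per library) went through an NEBNext Ultra kit and was read as 150 bp pairs, per the labels' protocols. Per the submitters' processing notes the tool Bowtie 0.12.2 and Rnor_6.0 as build apply, in roles not stated. The sources used here give no counting tool or strand setting, so reads of overlapping or near-identical features cannot be told apart. Values in the deposited table are a signal, reads divided by 1 factor per library: 100% of values were whole multiples of a step (within 0.01), and median-of-ratios factors matched. Recovery is less well tested in sham replicate 1, whose step is near 1.

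Members and lists were chosen with earlier results of these data known. None of the 23 gene lists could be run, as 0 IDs matched a symbol. By the naming rule the member of highest mean and the one of largest margin are printed by ID, and a further one that fell at 1 h was added. The 11117 features reaching 10 in 3 libraries were tested on log2(value + 1) with limma 3.58.1 (trend, robust; R 4.3.3), all 15 libraries in 1 fit, two-sided, Benjamini-Hochberg adjustment over all features, threshold 0.05. The slope test was added after the data were examined. Alternatives were edgeR 4.0.16 and DESeq2 1.42.0 on recovered reads, other filters, pseudocounts and scalings, the factor as a covariate, the replicate block and each library left out. Deviations of same-numbered 6 h and 12 h libraries correlated by 0.13, 0.15 and 0.45 across features, each above 0.1, so a fit paired by these numbers was added. For sham and 1 h (0.16, 0.01 and 0.10) and sham and 72 h (0.06, -0.05 and -0.09) no such separate fit was added. Correlations of differently numbered libraries are not given, and replicate 3 had the highest factor in sham and at 1 h, 6 h and 12 h. Whether the samples were paired is thus not settled.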

Additional observations from a re-analysis of the deposited data

How the results depend on the processing

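The number of members was 92 at a margin of 0.8, 9 at 1.5, 95 with a value of at least 10 in 3 libraries and 8 with reads scaled to equal totals (10 kept the margin, but the minimum of 50 is also read on that scale). With group means it was 36, of which 23 were among the 44. It ran from 17 to 117 with 1 library left out. Members separating 6 h and 12 h from all other libraries numbered 8 on equal totals and 4 to 11 with 1 library left out. For 12 h against 6 h, 0 members were called under every alternative run. For 1 h against sham edgeR and equal totals called 0, and leaving out 1 library gave 0 to 2. For 72 h against sham DESeq2 called 1 (0.254% of features) and the factor as a covariate 1 (0.207%), and leaving out 1 library gave 0 to 1. Members with a called slope numbered 16 on equal totals and 15 to 29 with 1 library left out. The cause of these shifts was not tested. With the replicate block the calls were 0 (12 h against 6 h, also with these libraries alone), 1 (1 h), 0 (72 h) and 25 (slope), so the block changed no call count by over 1.5 times. Depth limits low members most: a value of 0 allows 3 reads.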

Other observations

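Among 1646 assembled gene models with a value of at least 50 in 3 libraries, 25 met the same margin (1.52%, against 0.999% of the annotated features). Their margins had a median of 1.26 and reached 5.78, and their mean values had a median of 363 and reached 33175. In 20 of the 25 the slope on the library factor was below 0, and in 20 replicate 3 was the lowest library of 12 h. Only 1 had all 6 libraries of 6 h and 12 h above all others, and 6 kept a margin of at least 1 on equal totals.

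Within groups, the deviations of members from their group means had a median correlation of 0.33 over 946 pairs of members, with 66.3% of pairs above 0. Over all pairs of the 4707 eligible features the median was 0.00, with 50.2% above 0. These correlations are across the same 15 libraries and share the library factor, and the same libraries chose the members.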
